A study of Homo sapiens with 12 samples.

Results

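The 9 genes described here encode integrin and laminin chains by which epithelial cells hold on to the basement membrane: the integrin alpha chains ITGA2, ITGA3, ITGA6 and ITGAV, the integrin beta chains ITGB1, ITGB4 and ITGB6, and the laminin chains LAMA3 and LAMB3. They were listed by gene name, with earlier results of these data known, and are 9 of 30225 genes in the deposited table and 9 of the 15721 genes tested. All 9 reached 1 TPM (an abundance per length of transcript, scaled so that each library sums to 1000000) in at least 3 of the 12 libraries, the filter for a test. ITGA6 reached it in 6 libraries of 2 groups, ITGB6 in 8 libraries of 3 groups and ITGA2 in 10 libraries of 4 groups. The other members reached it in all 12.

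RNA was sequenced from PC9 cells, a human non-small cell lung cancer line that depends on a mutated EGFR. Gefitinib, which blocks the EGFR kinase, was present at 300 nM in every group, the controls included, and cells without the drug were not analysed here. The 4 groups of 3 libraries were PC9 control cells at 24 h of gefitinib, cells with an shRNA against AGR2 (labelled shAGR2) at 24 h, PC9 control cells at 72 h, and cells labelled oeAGR2, which overexpress AGR2, at 72 h. AGR2 belongs to the disulfide isomerases, which fold secreted proteins in the endoplasmic reticulum, and the comparisons ask which genes it regulates under gefitinib. The labels do not give the vector that the controls carry, the number of shRNAs, whether the cells were clones or pools, or whether the 3 replicates were separate cultures. Each p therefore measures the spread between these libraries, which may be technical.

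Integrins are receptors made of 1 alpha and 1 beta chain that join the extracellular matrix to the cytoskeleton. Laminin-332, a trimer that holds the chains from LAMA3 and LAMB3, is the main adhesive laminin under stratified and glandular epithelia. ITGA3 pairs with ITGB1, and ITGA6 with ITGB4 or ITGB1, to bind laminins, and the pair of ITGA6 and ITGB4 anchors hemidesmosomes to keratin filaments. ITGA2 with ITGB1 binds collagens and also laminins. ITGAV with ITGB6 binds proteins with an RGD sequence, and is known for releasing active TGF-beta from its latent complex in lung epithelium.

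In the deposited table (GRCh38) ITGA2 (ENSG00000164171) lies at chr5:52989340-53094779 and ITGA6 (ENSG00000091409) at chr2:172234216-172506459, both on the plus strand. ITGA3 (ENSG00000005884, chr17:50055968-50090481) and ITGB4 (ENSG00000132470, chr17:75721328-75757818) lie on chromosome 17, plus strand, ITGAV (ENSG00000138448) at chr2:186590010-186680901, plus strand, and ITGB6 (ENSG00000115221) at chr2:160099667-160271888, minus strand. ITGB1 (ENSG00000150093) lies at chr10:32887273-33005792, minus strand, LAMA3 (ENSG00000053747) at chr18:23689453-23956222, plus strand, and LAMB3 (ENSG00000196878) at chr1:209614870-209652425, minus strand. All 9 are annotated as protein-coding.

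Of the 9 members, 7 had promoter windows in the RefSeq table (build GRCh38.p14), 12 windows in all, each from 250 bases before to 50 bases after an annotated start. A promoter of LAMA3 and one of LAMB3 are shown because their RNAs are chains of 1 trimer and because these were the member windows with an AP-1 match. A promoter of ITGA6 and one of ITGA2 are shown because these alpha chains had the highest ratios of knockdown to control among the members. Capitals mark matches to TGANTCA, the AP-1 motif bound by FOS and JUN dimers, and to GGGCGG, the motif of SP and KLF factors, on either strand.
LAMA3, chr18:23872770-23873069, plus strand: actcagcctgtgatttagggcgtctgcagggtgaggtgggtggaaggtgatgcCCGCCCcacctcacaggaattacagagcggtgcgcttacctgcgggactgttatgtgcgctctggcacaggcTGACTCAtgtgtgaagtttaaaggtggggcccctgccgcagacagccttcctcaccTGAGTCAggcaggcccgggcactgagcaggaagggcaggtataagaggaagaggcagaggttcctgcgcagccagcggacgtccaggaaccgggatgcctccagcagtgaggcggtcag
LAMB3, chr1:209651325-209651624, minus strand: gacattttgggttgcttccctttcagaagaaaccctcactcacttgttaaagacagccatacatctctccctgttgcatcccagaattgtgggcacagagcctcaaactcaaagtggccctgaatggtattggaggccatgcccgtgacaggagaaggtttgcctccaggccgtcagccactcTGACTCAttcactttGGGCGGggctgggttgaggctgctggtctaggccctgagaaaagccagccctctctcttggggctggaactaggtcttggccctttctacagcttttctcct
ITGA6, chr2:172427336-172427635, plus strand: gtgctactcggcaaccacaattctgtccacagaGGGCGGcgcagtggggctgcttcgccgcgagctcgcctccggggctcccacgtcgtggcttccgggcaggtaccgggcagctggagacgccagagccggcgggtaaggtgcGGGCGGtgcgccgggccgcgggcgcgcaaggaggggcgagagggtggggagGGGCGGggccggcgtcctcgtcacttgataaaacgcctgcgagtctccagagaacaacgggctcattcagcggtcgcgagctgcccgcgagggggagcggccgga
ITGA2, chr5:52989102-52989401, plus strand: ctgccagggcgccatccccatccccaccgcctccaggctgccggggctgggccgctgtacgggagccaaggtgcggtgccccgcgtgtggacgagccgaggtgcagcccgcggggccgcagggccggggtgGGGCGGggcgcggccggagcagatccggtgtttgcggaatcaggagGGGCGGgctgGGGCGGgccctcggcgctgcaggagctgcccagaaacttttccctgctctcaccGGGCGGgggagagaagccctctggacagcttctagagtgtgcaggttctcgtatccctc

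The LAMA3 and LAMB3 windows lie inside the spans of their genes, at internal starts. The LAMA3 window held AP-1 matches whose first bases lay 125 and 69 bases before the start, and the LAMB3 window 1 match, 67 bases before it. AP-1 matches occurred in 2 of the 12 member windows, from 2 of the 7 members, against 7.71% of all 35116 windows. GGGCGG was found in 8 of the 12 member windows, of ITGA2, ITGA6, ITGB1, LAMA3 and LAMB3, and in 45.0% of all windows. The ITGA6 windows overlap and share a match, as do 2 of the LAMB3 windows, so the 8 are not all independent. The E-box CACCTG was found in 4 of the 12, of ITGA6, ITGB6, LAMA3 and LAMB3 (20.6% of all windows), and in LAMA3 it overlaps the AP-1 match nearer to the start. GGAATG, the TEAD motif, was found in 1 of the 12, of ITGB1 (14.0% of all windows). A match describes these letters and is not a measured binding site.

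AGR2 was 47.5-fold lower in the knockdown (0.673 ± 0.0893 TPM, SD, n = 3, against 31.9 ± 0.868) and 1.38-fold higher in the overexpressing cells (11.2 ± 0.808 against 8.11 ± 0.481), with no overlap between libraries. TPM keep no read numbers, so the depth is unknown; 12130 to 14589 genes per library reached 1 TPM. Relative to the 24 h controls the median tested gene was shifted by a log2 value of 0.35 in the knockdown and 0.30 in the 72 h controls, and the overexpressing cells were shifted by 0.025 from the 72 h controls. Changes are therefore given as deposited and, for many counts and members, also as "rescaled", after each library was set to its median gene. Single genes outside the members are mostly given as deposited only, and their changes in the knockdown include this shift. For example, SDC1 was at 0.72 as deposited and 0.22 rescaled, and BCAM at -0.92 and -1.43. The median of the longest eighth of tested transcripts minus that of the shortest, on the log2 scale, was -0.50, -0.41 and -0.34 in the 24 h controls, -0.14 to 0.015 in the knockdown and 0.18 to 0.26 in the 72 h controls. In overexpression replicates 1 to 3 it was -0.40, 0.08 and -0.094, so replicate 1 stood apart. Of 9 epithelial markers 8 reached 1 TPM in each group (the surfactant gene SFTPB was below 0.1 TPM). Their summed level was 5787 to 7381 TPM in the 24 h controls, 2846 to 3089 in the knockdown, 5650 to 6055 in the 72 h controls and 7605 to 9622 in the overexpressing cells. Marker sums of fibroblasts (4 of 6 listed), leukocytes (5 of 6) and endothelial cells (4 of 4) stayed at or under 8.74, 4.76 and 1.24 TPM in every library.

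The integrin and laminin chains differed widely in level. In the 24 h controls ITGB4 stood highest at 37.3 ± 4.55 TPM (SD, n = 3), followed by LAMB3 at 17.4 ± 1.56 and ITGA3 at 17.1 ± 1.28, whose libraries overlapped, and by ITGB1 at 11.8 ± 1.64. ITGAV (2.39 ± 0.326) and LAMA3 (2.30 ± 0.338) overlapped, as did ITGA2 (1.06 ± 0.175), ITGB6 (1.05 ± 0.125) and ITGA6 (0.918 ± 0.116). The low chains are thus those that TPM + 1, the scale of the test, compresses most.

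**Figure D1:**
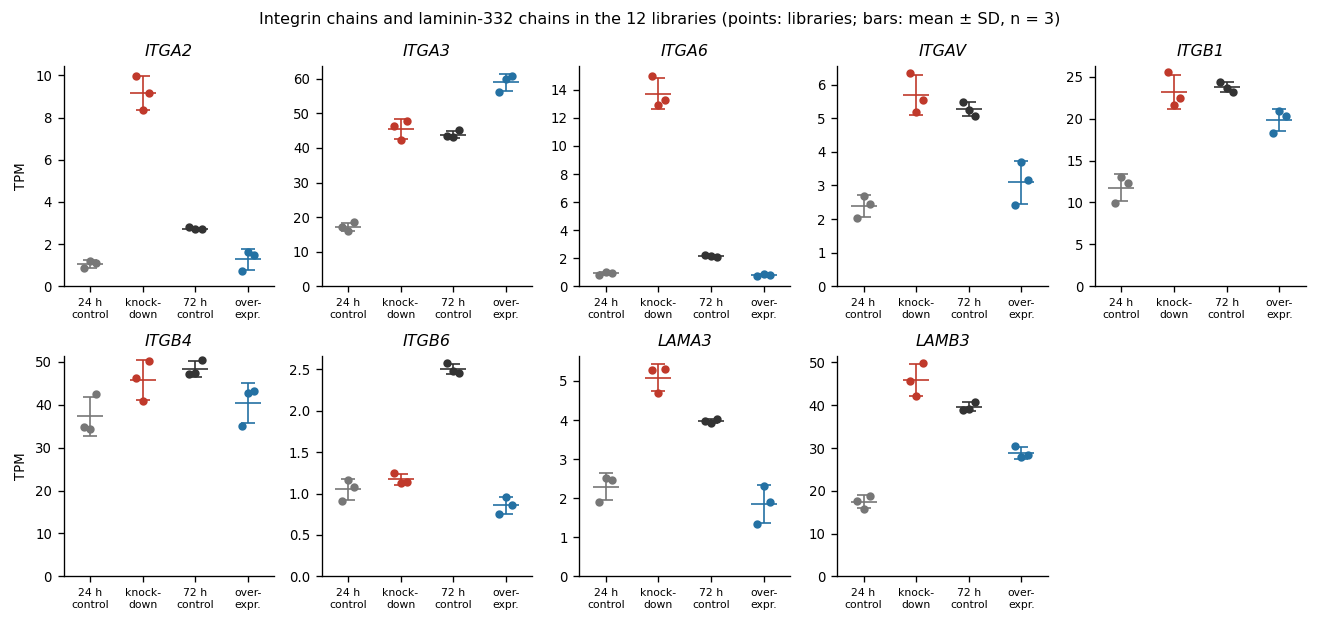
Level of each chain in TPM (vertical axis, starting at 0) in the 12 libraries, with points for libraries and bars for the mean ± SD of 3. ITGA6 and ITGA2 stand far above every other group in the knockdown (13.7 and 9.17 TPM), and ITGA3 is highest in the overexpressing cells (59.0 TPM).

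In the comparison of AGR2 knockdown with control at 24 h, which asks what the loss of AGR2 changes, ITGA6 and ITGA2 rose most. ITGA3, LAMB3, ITGAV, ITGB1 and LAMA3 rose by 0.89 to 1.36 on the log2 scale, and ITGB4 passed the test narrowly. By limma with Benjamini-Hochberg adjustment 8 of the 9 members rose, none fell and ITGB6 did not pass. Over all tested genes 53.6% rose and 11.9% fell, 65.6% in all. After rescaling 7 members rose, ITGB6 fell and ITGB4 did not pass, while 29.4% of all tested genes rose and 29.9% fell. The members' median change was 0.98 on the log2 scale as deposited against 0.35 over all tested genes, and 0.59 against -0.011 after rescaling. In 7 members every knockdown library was above every control library, which held for 57.3% of tested genes. In bulk RNA a change in RNA per cell and a change in the cells present cannot be told apart. The summed epithelial markers were lower in the knockdown, but the listed genes did not share one direction. Mean levels in the controls and the knockdown were 3684 and 1501 TPM for KRT18 and 1729 and 799 TPM for KRT19, which make up most of the sum. KRT7 (677 and 398 TPM), KRT8 (404 and 156 TPM) and CLDN4 (52.4 and 22.5 TPM) were also lower in the knockdown. For EPCAM the means were 39.9 and 47.3 TPM, for CDH1 7.46 and 7.02 TPM and for NKX2-1 1.05 and 1.06 TPM. The part of these markers in the members' values was not tested.

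ITGA6, the laminin-binding alpha chain of hemidesmosomes, had the largest change. Its level was 0.784, 0.993 and 0.978 TPM in the 24 h controls and reached 15.0, 12.9 and 13.3 TPM in the knockdown libraries. The groups lay far apart, and the least of the knockdown libraries held many times the highest control. Every 24 h control and overexpression library of ITGA6 was below 1 TPM. It therefore entered the test only through the knockdown and the 72 h controls, the higher groups of its comparisons. The ratio of means was 15.0-fold and the log2 change 2.94 (SE 0.0706, limma adjusted p = 9.88e-10), or 2.61 after rescaling. ITGA2, the collagen-binding alpha chain, was at 0.868, 1.21 and 1.10 TPM in the controls and 9.99, 8.37 and 9.16 TPM in the knockdown, again with no overlap. It rose 8.65-fold, by 2.30 on the log2 scale (SE 0.142, limma adjusted p = 3.07e-07), and by 1.97 after rescaling. The opposite strand of ITGA2 holds 3 annotated genes, whose summed mean was 0.476 TPM for control cells at 24 h against 1.34 with knockdown, and 0.392 TPM for control cells at 72 h against 1.34 with overexpression. That is a sizeable amount beside ITGA2 itself in the 24 h controls and the overexpressing cells (1.06 and 1.27 TPM). Whether reads were assigned by strand is unknown, so reads of the 2 strands cannot be told apart.

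ITGA3, the main laminin-binding alpha chain of these cells by level, was at 17.0, 15.9 and 18.5 TPM in its controls and 46.4, 42.4 and 47.9 TPM in the knockdown. No library of one group reached the other. It rose 2.66-fold, a log2 change of 1.36 (SE 0.0661, limma adjusted p = 6.26e-08) and of 0.87 after rescaling. ITGAV, the RGD-binding alpha chain, held 2.04, 2.68 and 2.44 TPM in the controls and 6.34, 5.17 and 5.55 TPM in the knockdown, without overlap. Its change was 2.38-fold, 0.98 on the log2 scale (SE 0.117, limma adjusted p = 3.32e-05) and 0.59 after rescaling. All 4 alpha chains among the members thus rose under both scalings.

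The beta chains differed from each other. ITGB1, the partner shared by most alpha chains, was at 9.92, 13.1 and 12.3 TPM in the controls and 25.5, 21.7 and 22.5 TPM in the knockdown. Its groups did not overlap, and it rose 1.97-fold, by 0.93 on the log2 scale (SE 0.0972, limma adjusted p = 1.24e-05) and by 0.45 after rescaling. ITGB4, the hemidesmosomal beta chain with a long cytoplasmic tail, was at 34.9, 34.4 and 42.5 TPM in the controls and 46.2, 40.8 and 50.3 TPM in the knockdown. The lowest knockdown library lay below the highest control. Its log2 change of 0.29 passed narrowly (SE 0.109, limma adjusted p = 0.0377), turned to -0.21 after rescaling (adjusted p = 0.0691) and lost the call when any of 6 single libraries was left out. These were 24 h control replicate 1 (0.25, adjusted p = 0.115) or 2 (0.24, adjusted p = 0.118), knockdown replicate 1 (0.28, adjusted p = 0.0876) or 3 (0.22, adjusted p = 0.134), and 72 h control replicate 1 (0.29, adjusted p = 0.0504) or 2 (0.29, adjusted p = 0.0514). GALK1, on the strand opposite to ITGB4, had group means of 1.68 to 4.64 TPM, and the same limit on strand holds. Opposite-strand genes of ITGA3, ITGA6, ITGAV and ITGB1 summed to group means of 1.48, 0.181, 0.0727 and 1.88 TPM at most. ITGB6 was at 0.916, 1.16 and 1.08 TPM in the controls and 1.24, 1.13 and 1.13 TPM in the knockdown, with overlap. Its log2 difference was 0.082 with a 95% interval of -0.061 to 0.23 (limma adjusted p = 0.287), and -0.19 after rescaling (adjusted p = 0.0108).

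LAMA3 and LAMB3, the laminin-332 chains among the members, both rose. LAMB3 was at 17.7, 15.8 and 18.9 TPM in the controls and 45.6, 42.2 and 49.8 TPM in the knockdown, a 2.63-fold rise (log2 1.35, SE 0.077, limma adjusted p = 1.85e-07; rescaled 0.86). LAMA3 was at 1.91, 2.52 and 2.46 TPM in the controls and 5.28, 4.69 and 5.30 TPM in the knockdown, a 2.22-fold rise (log2 0.89, SE 0.118, limma adjusted p = 7.19e-05; rescaled 0.50). Neither chain had overlapping groups, and their ratios of means lay close to each other. LAMA3 is known to give a short and a long transcript from separate promoters, and the deposited values per gene do not part them.

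In the overexpressing cells at 72 h, which ask what added AGR2 changes, most of the same chains were lower and ITGA3 was higher. By limma 6 of the 9 members fell (25.5% of all tested genes fell), 1 rose (29.9% rose, and 55.4% passed either way), and ITGB1 and ITGB4 did not pass. After rescaling all members other than ITGA3 fell, 8 of 9, while 28.6% of tested genes fell and 27.8% rose. In 8 members every overexpression library lay below every control, which held for 29.9% of tested genes, and in ITGA3 every one lay above, as in 33.2%. The members' median change was -0.63 on the log2 scale against 0.025 over all tested genes. Without overexpression replicate 1, the lowest of its group in 8 of the 9 members, 6 members fell and 1 rose. In that fit 4001 of the 15721 tested genes fell and 4950 rose.

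ITGA6 was at 2.21, 2.15 and 2.06 TPM in the 72 h controls, then 0.702, 0.879 and 0.803 TPM in the overexpressing cells. The groups did not overlap. It fell 2.7-fold (log2 -0.81, SE 0.0706, limma adjusted p = 5.91e-06), to a level that overlapped the 24 h controls. ITGA2 was at 2.79, 2.71 and 2.7 TPM in the controls and 0.712, 1.62 and 1.47 TPM in the overexpressing cells, where replicate 1 stood apart from the others. It fell 2.15-fold (log2 -0.74, SE 0.142, limma adjusted p = 0.0013), and by 0.55 on the log2 scale without replicate 1. ITGAV was at 5.49, 5.25 and 5.08 TPM in the controls and 2.40, 3.69 and 3.17 TPM in the overexpressing cells. It fell 1.71-fold (log2 -0.63, SE 0.117, limma adjusted p = 0.00111).

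ITGA3 went the other way, from 43.5, 43.1 and 45.1 TPM in the controls to 56.2, 59.9 and 61.0 TPM in the overexpressing cells. Each overexpression library was above each control, and the 1.34-fold rise had a log2 change of 0.42 (SE 0.0661, limma adjusted p = 0.00037; rescaled 0.37). Its highest levels of all were in these cells, and its knockdown libraries overlapped the 72 h controls.

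Among the beta chains ITGB6 fell most, from 2.57, 2.49 and 2.45 TPM in the controls to 0.756, 0.962 and 0.862 TPM. Without overlap it fell 2.91-fold (log2 -0.92, SE 0.0644, limma adjusted p = 1.31e-06). ITGB1 was at 24.4, 23.7 and 23.2 TPM in the controls and 18.3, 20.9 and 20.3 TPM in the overexpressing cells. ITGB4 was at 47.1, 47.4 and 50.5 TPM in the controls and 35.0, 42.8 and 43.2 TPM in the overexpressing cells. In both genes the overexpression libraries lay below the controls by a small margin. The log2 difference of ITGB1 was -0.25 (95% interval -0.47 to -0.032, limma adjusted p = 0.0509) and that of ITGB4 -0.26 (-0.50 to -0.016, limma adjusted p = 0.0669). Both passed after rescaling, at -0.29 (adjusted p = 0.00763) and -0.30 (adjusted p = 0.0156). ITGB1 also passed as deposited without 24 h control replicate 1 (adjusted p = 0.0155) or 2 (0.0386) or knockdown replicate 1 (0.0463), and ITGB4 without 24 h control replicate 3 (0.0454), at the same log2 differences by limma, since these libraries enter only the estimate of spread. Without overexpression replicate 1 the differences were -0.20 (adjusted p = 0.145) for ITGB1 and -0.16 (adjusted p = 0.214) for ITGB4.

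LAMA3 and LAMB3 also fell with overexpression. LAMA3 went from 3.96, 3.93 and 4.03 TPM in the controls to 1.34, 2.30 and 1.89 TPM, a 2.16-fold fall (log2 -0.82, SE 0.118, limma adjusted p = 0.000193). LAMB3 went from 38.8, 39.2 and 40.8 TPM to 30.5, 27.8 and 28.4 TPM, a 1.37-fold fall (log2 -0.44, SE 0.077, limma adjusted p = 0.000693). In each gene the groups did not overlap, and replicate 1 was the lowest overexpression library for LAMA3 but the highest for LAMB3.

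The controls themselves changed between 24 h and 72 h of gefitinib. All 9 members rose by limma (52.9% of tested genes rose and 8.1% fell, 61.0% in all), and in all 9 every 72 h library was above every 24 h library (58.4% of tested genes). The rises ran from 0.37 on the log2 scale for ITGB4 (adjusted p = 0.0134) to 1.31 for ITGA3 (adjusted p = 4.19e-07), with LAMB3 at 1.14, ITGB1 at 0.96, ITGAV at 0.89, ITGA2 at 0.86, ITGB6 at 0.77, ITGA6 at 0.71 and LAMA3 at 0.60. The median was 0.86, against 0.30 over all tested genes. After rescaling 8 rose (27.9% of tested genes rose, 26.3% fell) and ITGB4 did not pass, at -0.066 (adjusted p = 0.564). This comparison shares the 24 h controls with the knockdown and the 72 h controls with the overexpression. AGR2 itself was 3.94-fold lower in the 72 h controls, at 8.11 TPM against 31.9 TPM at 24 h (log2 -1.86, limma adjusted p = 7.99e-08). The overexpressing cells, at 11.2 TPM, also lay below the 24 h controls, with no overlap. The part of AGR2 in the control comparison was not tested. Time under the drug cannot be told apart from time in culture or growth, since cells without gefitinib were not analysed here.

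The members are long transcripts, all in the longest 3 of 8 length classes of tested genes. The median change of all genes in these classes was 0.43 to 0.53 for the knockdown, -0.08 to 0.0055 for the overexpression and 0.42 to 0.57 for the control comparison, on the log2 scale. After removal of the dependence on length and GC content from each library, 8 members rose and ITGB6 fell in the knockdown. In that fit 1 rose and 8 fell with overexpression, and 8 rose between the controls. The removal kept the general shift: the all-gene medians were 0.34, 0.025 and 0.28 in these 3 comparisons. The members' medians were 0.76, -0.57 and 0.63. Shares of all tested genes called in that fit are not reported here.

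**Figure D2:**
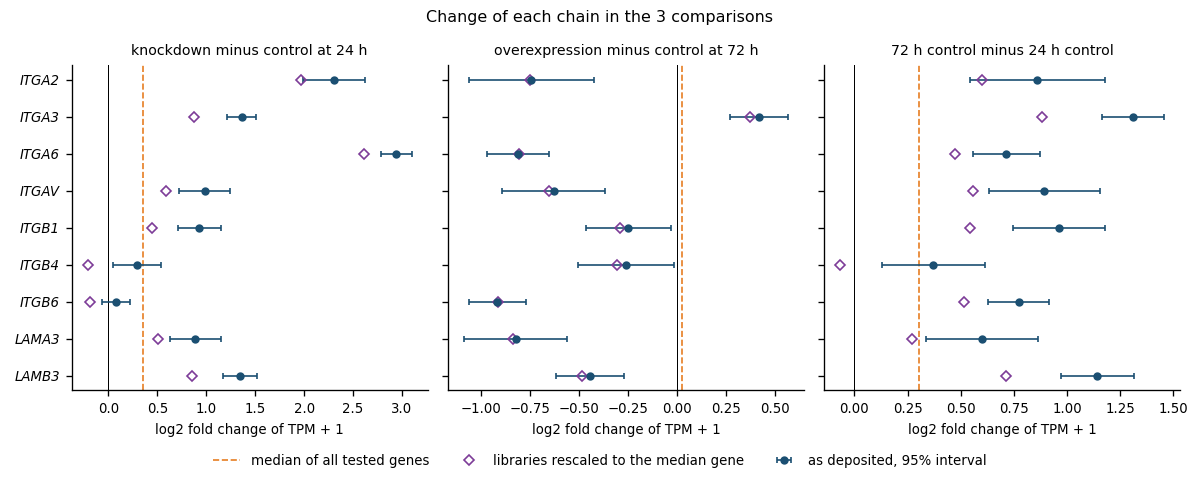
Log2 fold change of TPM + 1 of each chain (horizontal axis) in the knockdown, the overexpression and the control comparison, as deposited with its 95% interval and after rescaling. ITGA6 (2.94) and ITGA2 (2.30) lead the knockdown panel, ITGA3 (0.42) is the chain to the right of 0 in the overexpression panel, and ITGB4 crosses 0 on rescaling in the knockdown (-0.21) and control (-0.066) panels.

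The effect of overexpression minus that of knockdown, from comparisons that share no library, was negative for all 9 members by limma, while 45.6% of tested genes were lower and 20.1% higher in this difference, 65.7% in all. It was -3.75 for ITGA6 (SE 0.0999, adjusted p = 1.38e-09), -3.05 for ITGA2, -1.79 for LAMB3, -1.71 for LAMA3, -1.61 for ITGAV, -1.18 for ITGB1, -0.997 for ITGB6, -0.94 for ITGA3 and -0.55 for ITGB4 (adjusted p = 0.00945). After rescaling 8 members remained lower (31.7% of tested genes lower, 32.2% higher), and ITGB4 gave -0.094 (adjusted p = 0.541). For ITGA3 the negative value sets a larger rise in the knockdown against a smaller rise with overexpression, while for ITGA6, ITGA2, ITGAV, LAMA3 and LAMB3 it sets a rise against a fall. The arms differ in time under gefitinib, so AGR2 and time cannot be told apart in this difference.

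**Figure D3:**
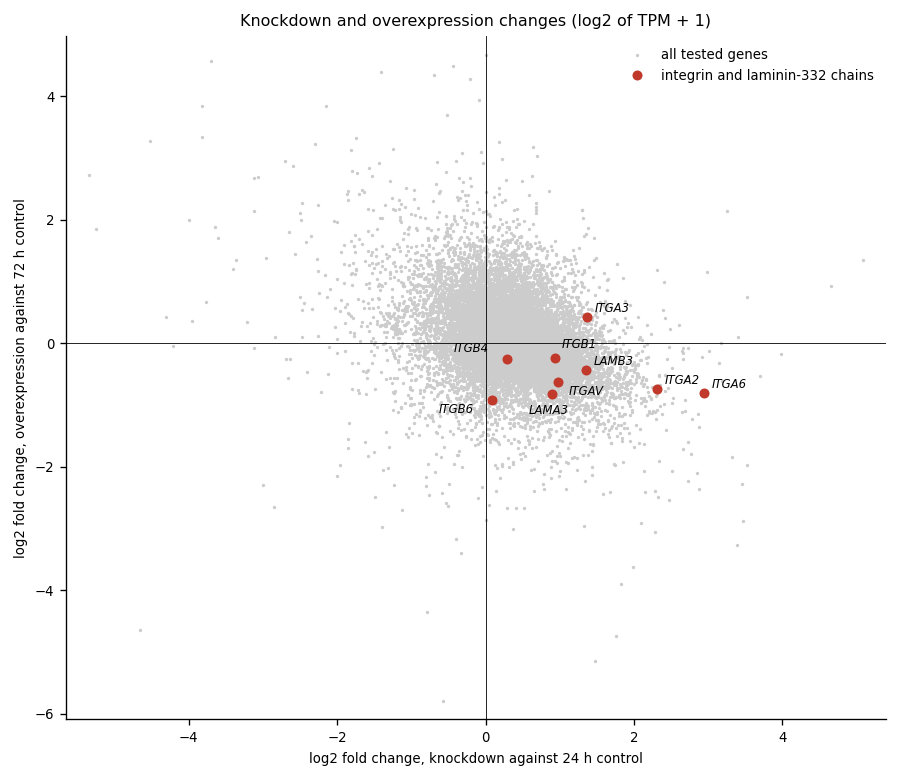
Log2 fold change of TPM + 1 in the knockdown (horizontal axis) and in the overexpression (vertical axis) for all 15721 tested genes in grey and the named chains in red. ITGA3 (1.36 and 0.42) is above 0 on both axes, and the other chains lie to the right of 0 in the knockdown and below 0 in the overexpression, although ITGB4 and ITGB6 pass to the left of 0 after rescaling (-0.21 and -0.19).

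Ratios between chains of 1 library show how the mix of receptors' RNAs shifted. All used TPM + 0.1, which shrinks the ratios of low chains and leaves them partly dependent on how libraries are scaled. The log2 ratio of ITGA6 to ITGB1, for example, differed between the 72 h and 24 h controls by 0.13 with TPM + 0.1, by 0.21 without a pseudocount and by -0.25 with TPM + 1. In all, 27 exact permutation tests were run on 9 pairs in 3 comparisons, 2-sided, where 3 against 3 libraries cannot give less than 0.1. The ratio of ITGA6 to ITGB4 went from 0.0272 in the 24 h controls to 0.302 in the knockdown (exact p = 0.1, adjusted 0.108). From 0.0463 in the 72 h controls it went to 0.0221 in the overexpressing cells, with no overlap in either comparison. ITGA6 to ITGB1 likewise went from 0.0860 to 0.593 in the knockdown and from 0.0940 to 0.0448 with overexpression, and ITGA2 to ITGB1 from 0.0977 to 0.398 and from 0.119 to 0.0653. ITGA3 to ITGB1 rose in both, from 1.46 to 1.96 in the knockdown and from 1.85 to 2.97 in the overexpression, with exact p = 0.1 each.

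ITGAV to ITGB6 was higher in both engineered groups, at 4.54 against 2.15 in the knockdown and 3.29 against 2.06 with overexpression. ITGB6 to ITGB1 was lower in both, at 0.0546 against 0.0974 and 0.0480 against 0.109. ITGB4 to ITGB1 was 1.97 in the knockdown against 3.16 in its controls, and 2.02 against 2.03 with overexpression, where the libraries overlapped (exact p = 0.9). LAMA3 to LAMB3 overlapped in the knockdown, at 0.113 against 0.136 (exact p = 0.2), and was lower with overexpression, at 0.0656 against 0.103. Of the 27 tests, 25 gave the smallest possible p, so none can pass 0.05 in this design.

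**Figure D4:**
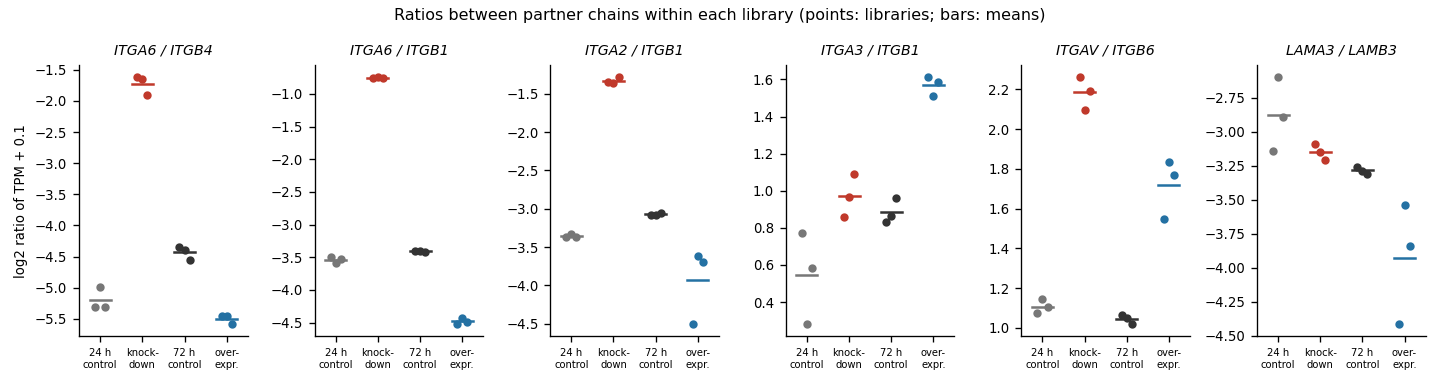
Log2 ratio of TPM + 0.1 between partner chains (vertical axis, scaled separately per panel) in each of the 12 libraries, with lines at the group means. The knockdown libraries are highest for ITGA6 to ITGB4 (mean -1.73), ITGA6 to ITGB1 (-0.75) and ITGA2 to ITGB1 (-1.33), and the overexpression libraries are highest for ITGA3 to ITGB1 (1.57).

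As shares of the RNA of 16 integrin alpha chains, ITGA3 made up 61.9% ± 1.44 (SD, n = 3) in the 24 h controls, against 50.9% ± 1.14 in the knockdown. Its share was 64.2% ± 0.934 in the 72 h controls, against 82.1% ± 1.72 in the overexpressing cells. ITGA6 took 3.32% ± 0.431 in the 24 h controls, against 15.3% ± 0.829 in the knockdown, then 3.13% ± 0.135 at 72 h and 1.10% ± 0.0704 with overexpression. ITGA3 thus lost share in the knockdown although its level rose, and the alpha-chain sum was 68.3 ± 0.685 TPM in the 72 h controls and 71.9 ± 4.30 with overexpression. For the knockdown that sum was 89.6 ± 5.35 TPM, against 27.7 ± 1.80 in its controls. Of 8 beta chains ITGB4 held 67.6% ± 3.27 in the 24 h controls and 57.3% to 58.8% in the other groups.

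Among 19 other integrin chains 6 were expressed well enough for a test. In the knockdown 3 rose and 1 fell (53.6% and 11.9% of all tested genes), with a median of 0.27 against 0.35. With overexpression 2 rose and 2 fell (29.9% and 25.5% of all tested genes), with a median of -0.10 against 0.025. ITGA5, the fibronectin receptor's alpha chain, rose in the knockdown from 4.03 ± 0.443 to 11.9 ± 0.595 TPM (log2 1.36, limma adjusted p = 4.34e-07) and fell with overexpression from 11.7 ± 0.315 to 5.04 ± 0.662 (log2 -1.08, limma adjusted p = 3.73e-06). ITGB5, another partner of ITGAV, rose in the knockdown from 2.19 ± 0.228 to 6.88 ± 0.332 TPM (log2 1.31, limma adjusted p = 8.3e-08).

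Other laminin chains did not share one direction. Of 8 listed 5 were tested. In the knockdown 2 rose and 2 fell (53.6% and 11.9% of all tested genes). After rescaling 1 rose and 3 fell there (29.4% and 29.9% of all tested genes). With overexpression 2 rose and 3 fell (29.9% and 25.5% of all tested genes). LAMB2, a beta chain of other laminins, fell in the knockdown from 29.7 ± 1.83 to 18.7 ± 2.39 TPM (log2 -0.65, limma adjusted p = 5.18e-05) and rose with overexpression from 53.4 ± 0.654 to 109.7 ± 1.99 (log2 1.03, limma adjusted p = 3.25e-06). LAMC1, the widespread gamma chain, rose in the knockdown by 0.38 as deposited (limma adjusted p = 0.0232), was at -0.062 after rescaling (adjusted p = 0.647), and fell by 0.53 with overexpression (adjusted p = 0.00526). LAMB1, the widespread beta chain, fell in both the knockdown, by 0.30 (limma adjusted p = 0.00994), and the overexpression, by 0.47 (limma adjusted p = 0.000969).

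The partners of hemidesmosomes and the tetraspanins, membrane proteins that associate with integrins, numbered 8, all tested. In the knockdown 4 rose and 1 fell as deposited (53.6% and 11.9% of all tested genes). After rescaling 4 rose and 4 fell there (29.4% and 29.9% of all tested genes). With overexpression 1 rose and 4 fell (29.9% and 25.5% of all tested genes). CD9, a tetraspanin, fell in the knockdown from 29.5 ± 0.158 to 16.8 ± 0.748 TPM (log2 -0.77, limma adjusted p = 1.17e-06). CD82, a tetraspanin known as a suppressor of metastasis, rose with overexpression from 0.419 ± 0.0225 to 6.12 ± 0.508 TPM (log2 2.32, limma adjusted p = 1.94e-09). CD82 was also low in the 24 h controls (0.106 TPM) and the knockdown (0.328 TPM). The gene thus entered the test only through the overexpressing cells, where it is high. PLEC, which links ITGB4 to keratin filaments, fell with overexpression by 0.42 (limma adjusted p = 0.018).

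Basement membrane components other than laminins had 5 of 14 genes tested. In the knockdown 1 rose and 2 fell (53.6% and 11.9% of all tested genes). After rescaling 0 rose and 4 fell there (29.4% and 29.9% of all tested genes). With overexpression 1 rose and 2 fell (29.9% and 25.5% of all tested genes). COL7A1, the collagen of anchoring fibrils, fell in both, from 6.66 ± 0.329 to 4.97 ± 0.234 TPM in the knockdown (log2 -0.36, limma adjusted p = 0.000208) and from 10.2 ± 0.533 to 4.71 ± 0.135 TPM with overexpression (log2 -0.97, limma adjusted p = 3.33e-07). AGRN, which encodes agrin, rose with overexpression from 65.2 ± 1.45 to 114.1 ± 3.72 TPM (log2 0.80, limma adjusted p = 6.91e-05), and COL18A1 fell by 0.33 (adjusted p = 0.00184).

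The list of integrin activators and focal adhesion proteins, which couple the beta-chain tails to actin, had 27 of 34 genes tested. In the knockdown 19 rose and 4 fell as deposited (53.6% and 11.9% of all tested genes), with a median of 0.53 against 0.35. After rescaling 11 rose and 7 fell there (29.4% and 29.9% of all tested genes), with a median of 0.062 against -0.011. With overexpression 1 rose and 17 fell (29.9% and 25.5% of all tested genes), with a median of -0.32 against 0.025. Rescaling gave 0 that rose and 20 that fell there (27.8% and 28.6% of all tested genes). FERMT1, the kindlin of epithelial cells, rose in the knockdown from 1.08 ± 0.108 to 5.07 ± 0.0707 TPM (log2 1.54, limma adjusted p = 3.42e-08), the adaptor CRKL by 1.15 and the small GTPase RAP1B by 0.90. FLNA, an actin crosslinker that binds beta-chain tails, fell with overexpression from 371.1 ± 12.5 to 106.3 ± 12.8 TPM (log2 -1.80, limma adjusted p = 3.94e-07), TGFB1I1 by 1.07 and TLN1, the talin that activates integrins, by 0.78.

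Of the RGD and collagen ligands of these integrins 11 of 16 were tested. In the knockdown 10 rose and none fell as deposited (53.6% and 11.9% of all tested genes), with a median of 0.78 against 0.35. After rescaling 5 rose and 2 fell there (29.4% and 29.9% of all tested genes), with a median of 0.27 against -0.011. With overexpression 2 rose and 6 fell (29.9% and 25.5% of all tested genes), with a median of -0.39 against 0.025. TNC, the matrix protein tenascin-C, rose in the knockdown from 0.0927 ± 0.0104 to 5.92 ± 0.469 TPM (log2 2.66, limma adjusted p = 8.6e-10), COL6A2 by 1.61 and COL6A1 by 1.54. TNC was at 0.0547 TPM in the 72 h controls and 0.00301 TPM in the overexpressing cells. It is among the 10 that rose, but entered the test only through the knockdown, where it is high. THBS1, thrombospondin 1, fell with overexpression from 193.8 ± 2.83 to 39.7 ± 7.6 TPM (log2 -2.28, limma adjusted p = 4.36e-07). FN1, fibronectin, fell from 16 ± 0.321 to 2.64 ± 0.601 TPM (log2 -2.24, limma adjusted p = 2.15e-07), and CCN2 by 1.38.

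Laminin receptors other than integrins had 6 of 7 genes tested. In the knockdown 2 rose and 1 fell (53.6% and 11.9% of all tested genes). After rescaling 2 rose and 4 fell there (29.4% and 29.9% of all tested genes). With overexpression 1 rose and 3 fell (29.9% and 25.5% of all tested genes). Rescaling gave 1 that rose and 4 that fell there (27.8% and 28.6% of all tested genes). CD44, a hyaluronan receptor that also binds matrix proteins, rose in the knockdown from 9.67 ± 0.98 to 58.6 ± 2.87 TPM (log2 2.48, limma adjusted p = 1.29e-08). BCAM, which binds the laminin chain of LAMA5, fell in the knockdown from 60.8 ± 5.99 to 31.5 ± 1.74 TPM (log2 -0.92, limma adjusted p = 1.7e-06) and rose with overexpression from 107.5 ± 2.97 to 231.2 ± 9.70 TPM (log2 1.10, limma adjusted p = 9.23e-07). SDC1, a syndecan, rose by 0.72 in the knockdown and fell by 0.69 with overexpression, and SDC4 fell by 0.52 there.

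Of the enzymes that process laminin and matrix 7 of 11 were tested. In the knockdown 3 rose and 3 fell (53.6% and 11.9% of all tested genes). After rescaling 3 rose and 4 fell there (29.4% and 29.9% of all tested genes). With overexpression 3 rose and 3 fell (29.9% and 25.5% of all tested genes). PLAU, urokinase, rose in the knockdown from 66.4 ± 2.65 to 144.4 ± 5.95 TPM (log2 1.11, limma adjusted p = 4.75e-08) and fell with overexpression from 103.1 ± 1.78 to 39.4 ± 1.44 TPM (log2 -1.36, limma adjusted p = 1.97e-08). PLAT, tissue plasminogen activator, rose with overexpression by 1.29 (limma adjusted p = 3.01e-08) and HPN, hepsin, by 0.93 (limma adjusted p = 6.73e-06).

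The genes whose log2 levels over the 12 libraries were most like each member are given with Pearson's r among 6620 tested genes with a symbol and a mean of at least 5 TPM. These values describe 4 groups of libraries and share their scaling, and say nothing of shared function. ITGA6 was most like PAICS, CSE1L and TRIP13, with r of 0.997 each, and ITGA2 like TIMELESS, DUSP4 and PA2G4P5, a pseudogene whose reads may come from its parent gene, with r from 0.992 to 0.993. ITGA3 was most like MAFF (0.994), DNAJB1 and SUMO3, and ITGAV like KCTD20 (0.995), PTPN11 and PSME4. ITGB1 was nearest to MIEF1 (0.994), KPNA4 and FEM1B, and ITGB6 to CHST3 (0.991) and DSC2. LAMA3 was nearest to MSN (0.986), CPNE3 and AP3M1, and LAMB3 to MAP7D1 (0.990), NACC1 and MARS1. ITGB4 had the least close neighbours, ENTREP3 (0.941), AGBL5 and ZNF764.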

How the data were processed

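NucleoZOL was used to extract total RNA for Illumina libraries, per the labels' protocols. Reads were aligned with STAR 2.7.8a to hg38/GRCh38, per the submitters' processing notes. The quantifier, strandedness and annotation were not given in the sources used. In 1 table the authors deposited TPM for 30225 genes in 12 libraries, each summing to 1000000, and no counts, so depth and its precision are unknown.

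The 15721 genes that reached 1 TPM in 3 or more libraries were fitted on the log2(TPM + 1) scale by limma 3.58.1 (R 4.3.3), with 4 group means over all 12 libraries and an intensity trend, leaving 8 residual degrees of freedom. Tests were 2-sided, with Benjamini-Hochberg adjustment over all tested genes and a threshold of 0.05. Fold values are ratios of mean TPM. Ratios between chains used exact permutation tests. The fit was tested on simulated data. Transcript length and GC content came from the longest transcript in GENCODE 29 (84.0% of gene IDs matched), and promoters from RefSeq.

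The members, gene lists and tests were chosen with earlier results of these data known. Named genes are the members, AGR2, up to 3 genes per list with the largest passing changes in the knockdown and in the overexpression (a mean of 5 TPM or more in whichever group is higher, no overlap between groups), and the 3 genes most like each member; not every gene of this rule or of the lists is reported here. Alternatives were other pseudocounts, filters and scalings, the compared libraries alone, a block for replicate number, robust shrinkage, library weights, removal of length and GC trends, and leaving out each library. Leaving out 24 h control replicate 1 and overexpression replicate 1 together, each the lowest of its own group in long transcripts, was added after the data were seen. Python 3.11.15 with numpy 2.4.6, pandas 2.3.3, scipy 1.17.1 and matplotlib 3.10.9 was used.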

Additional observations from a re-analysis of the deposited data

How the results depend on the processing

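Precision is limited by 3 libraries a group and by an unknown depth. The calls of ITGA2, ITGA3, ITGA6, ITGAV, LAMA3 and LAMB3 in the knockdown, the overexpression and the control comparison kept their direction and their side of the threshold under every alternative in which they were tested; LAMA3 and ITGB6 drop out at a filter of 5 TPM. ITGB4 in the knockdown turned to -0.21 with rescaled libraries and -0.068 with quantile normalisation, and between the controls to -0.066 with rescaled libraries. Its call in the knockdown was also lost with no filter (0.29, adjusted p = 0.0547), the comparison's libraries alone (0.29, 0.0642), library weights (0.19, 0.0945) and nuclear protein-coding genes alone (0.049, 0.724). Between the controls it was lost with quantile normalisation (0.062), nuclear protein-coding genes alone (0.10) and length and GC trends removed (0.025), and in the difference of effects with rescaled libraries (-0.094), quantile normalisation (-0.24) and nuclear protein-coding genes alone (-0.34). ITGB6 in the knockdown, not called as deposited, turned to -0.19 with rescaled libraries, -0.20 with quantile normalisation, -0.051 with nuclear protein-coding genes alone and -0.16 with length and GC trends removed; the count of members that fell there was 1 in the first, second and last of these. The cause was not tested. Ratios of TPM + 1, which compress low chains by construction, reversed 5 differences between the controls: ITGA6 to ITGB1 (-0.25), ITGA2 to ITGB1 (-0.10), ITGAV to ITGB6 (0.12), ITGAV to ITGB1 (-0.070) and ITGB6 to ITGB1 (-0.19). Same-numbered libraries correlated weakly, at -0.159 to 0.062 around their group means, so the main fit used no pairing. Between the controls the best match was still the same number in each replicate. These values cannot show whether libraries were paired by design. With the replicate block 8 members rose in the knockdown, and ITGB4 passed with overexpression (-0.26, limma adjusted p = 0.0283). Counts over all tested genes with the block are not reported here. Counts over all tested genes moved by over 1.5 times as follows. With no filter 7120 rose with overexpression and 4788 were higher in the difference of effects. With a filter of 5 TPM 4931 rose in the knockdown, 2616 rose and 2481 fell with overexpression, 4965 rose between the controls, and 1833 were higher and 4293 lower in the difference; fewer genes were tested. With rescaled libraries 4620 rose and 4699 fell in the knockdown, 4380 rose and 4132 fell between the controls, and 5059 were higher in the difference. With quantile normalisation these were 4967 and 4399 in the knockdown and 4704 and 3851 between the controls. With nuclear protein-coding genes alone 5237 rose in the knockdown, 3065 with overexpression and 4764 between the controls. Leaving out 1 library gave 7 to 8 members higher in the knockdown, with 7816 to 8848 of all tested genes. It gave 6 to 7 members lower with overexpression, with 3499 to 4060 of all tested genes. Leaving out 24 h control replicate 1 and overexpression replicate 1 together gave 7 and 7 members. All-gene counts of that joint fit are not reported here. The comparison's libraries alone give no separate value for the difference of effects, which uses all 12.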

Other observations

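Other genes of the hemidesmosome and of the integrin family, chosen after their values were seen, moved as follows. COL17A1, the transmembrane collagen of hemidesmosomes, rose in the knockdown from 0.378 ± 0.0516 to 1.55 ± 0.154 TPM (SD, n = 3; log2 0.89, limma adjusted p = 1.54e-06). It fell with overexpression from 0.911 ± 0.0735 to 0.215 ± 0.0578 TPM (log2 -0.65, limma adjusted p = 2.34e-05). COL17A1 lay below 1 TPM outside the knockdown, so it entered the test only through the knockdown, where it is high. DST, whose epithelial form is the hemidesmosomal plakin BP230, rose in the knockdown by 0.74 (limma adjusted p = 0.00116) and fell with overexpression by 0.55 (limma adjusted p = 0.00902). PLEC, of the same list, did not pass in the knockdown (0.21, limma adjusted p = 0.182). CD151, a tetraspanin of that list, passed in neither the knockdown (0.061, limma adjusted p = 0.591) nor the overexpression (0.15, 0.207). After rescaling PLEC and CD151 were lower in the knockdown, at -0.29 and -0.44. ITGB8, another partner of ITGAV, fell with overexpression from 4.83 ± 0.13 to 1.36 ± 0.308 TPM (log2 -1.31, limma adjusted p = 5.52e-06) and in the knockdown by 0.36 (limma adjusted p = 0.0181). ITGB2, the beta chain of leukocyte integrins, rose with overexpression from 0.608 ± 0.0206 to 2.01 ± 0.0926 TPM (log2 0.90, limma adjusted p = 7.75e-07). With 0.133 TPM in the 24 h controls and 0.0704 TPM in the knockdown, ITGB2 entered the test only through the overexpressing cells, where it is high. Among other leukocyte markers, the mean of the overexpressing cells was 0.0163 TPM for PTPRC, 1.16 for CD14 and 0.866 for LYZ; in the 72 h controls CD14 was at 1.51 and LYZ at 0.861. Their part in the ITGB2 value was not tested.
SPP1, osteopontin, a ligand of ITGAV integrins, rose in both the knockdown (109 to 194.5 TPM, log2 0.83, limma adjusted p = 2.42e-06) and the overexpression (172.6 to 356.2 TPM, log2 1.04, limma adjusted p = 9.05e-07).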
